A study of Mus musculus with 6 samples.

Results

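UDP-glucuronosyltransferases (UGTs) were examined in mouse livers with and without a guide RNA against Prdx2. The family was represented by 10 genes picked by symbol from the 52459 genes of the count table, 5 of the Ugt1a locus (Ugt1a1, Ugt1a6a, Ugt1a6b, Ugt1a7c and Ugt1a9) and 5 Ugt2b genes (Ugt2b1, Ugt2b5, Ugt2b34, Ugt2b35 and Ugt2b36). All 10 passed the filter on low counts, which left 17032 genes. Ugt1a7c entered the list because it had been seen to fall in these livers, so its values are given as a description without a test.

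Both groups were male Alb-Cre/Cas9 F1 mice on a C57BL6J background, in which Alb-Cre switches on Cas9 in hepatocytes. An AAV8-U6 vector delivered either the control guide (sgCtrl, mice 5.1, 7.1 and 7.2) or the guide against Prdx2 (sgPrdx2, mice 1.1, 1.3 and 3.2) at 4 to 5 weeks of age. The carcinogen diethylnitrosamine (DEN, 100 mg/kg) was given 3 weeks later, and 1 week after it all mice were put on CDA-HFD, a high-fat diet that lacks choline and holds defined amino acids, for 6 months, up to an age of 8 months. The knockout reaches only hepatocytes that took up the vector, whereas RNA was taken from whole liver tissue with all its cell types. In stained sections of knockout livers the study describes PRDX2-positive patches, which it takes to be most likely not transduced. Every liver had received DEN and CDA-HFD, so no value below describes a healthy liver.

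UGTs sit in the membrane of the endoplasmic reticulum and transfer glucuronic acid from UDP-glucuronic acid to small lipophilic molecules, which makes them soluble enough to leave in bile or urine. Their substrates include bilirubin, steroid hormones, bile acids, drugs and dietary phenols, and the liver is the main site of this conjugation. Ugt1a enzymes come from 1 locus in which alternative first exons, each with its own promoter and encoding the substrate-binding part, are joined to a common set of later exons that encode the part that binds the sugar donor. Ugt2b enzymes come from separate, closely related genes.

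The livers had 37462102 to 56865293 counts each. The libraries differed in composition: albumin took 6.61% to 7.01% of the counts of sgCtrl livers and 9.28% to 11.3% of those of sgPrdx2 livers, and the TMM factors, which correct for such differences, lay between 1.12 and 1.17 for the sgCtrl and between 0.805 and 0.951 for the sgPrdx2 livers. With total counts as the only scaling, the median over all log2 fold changes moved from -0.02 to -0.39. On the first principal component (44.9% of the variance) the sgCtrl livers lay between -39.4 and -26.0, sgPrdx2 livers 1.1 and 1.3 at 19.7 and 10.9, and sgPrdx2 liver 3.2 apart at 61.0. Prdx2 RNA stood at 119 ± 11.6 CPM (TMM-scaled CPM, the count of a gene relative to its library size, mean ± SD, n = 3) in the sgCtrl and 120 ± 26.1 CPM in the sgPrdx2 livers (log2 fold change 0.01, adjusted p = 0.983), so the count of the targeted gene does not tell the groups apart, and cutting by Cas9 need not lower it. Of the 17032 genes, 3.33% were called at an adjusted p under 0.05 (edgeR quasi-likelihood test), 1.79% higher and 1.54% lower in sgPrdx2 livers, and in 4 of the 6 fits with 1 liver left out no gene was called.

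In the GENCODE M21 annotation of GRCm38 the 5 Ugt1a members lie on the plus strand of chromosome 1 and end in the same exons. Ugt1a9 spans chr1:88070800-88218997, Ugt1a7c chr1:88095062-88220002, Ugt1a6b chr1:88103252-88219003, Ugt1a6a chr1:88134809-88218997 and Ugt1a1 chr1:88211959-88218997. In each of them a first coding exon of 849 to 870 coding bases was spliced to exon 2 at chr1:88215044-88215175, and the last of 5 coding exons began at position 88218127. The sequences below are shown because the splice junction is where a read can pass from the part of the transcript that names the gene to the part that all members share. Each line gives the last 36 bases of exon 1 in lower case and the first 24 bases of exon 2, which is the same for all, in capitals.
Ugt1a1: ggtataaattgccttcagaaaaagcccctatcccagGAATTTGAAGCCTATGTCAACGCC
Ugt1a6a: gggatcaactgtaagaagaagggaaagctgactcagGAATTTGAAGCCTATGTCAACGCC
Ugt1a6b: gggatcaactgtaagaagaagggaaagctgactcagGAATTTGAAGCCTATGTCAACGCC
Ugt1a7c: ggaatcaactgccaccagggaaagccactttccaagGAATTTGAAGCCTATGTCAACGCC
Ugt1a9: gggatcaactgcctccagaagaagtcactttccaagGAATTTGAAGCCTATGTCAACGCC
The junctions of Ugt1a6a and Ugt1a6b were identical over these bases. Those of Ugt1a7c and Ugt1a9 ended alike but differed further upstream. Over the whole coding part of exon 1, Ugt1a6a and Ugt1a6b were 97.0% identical, Ugt1a7c and Ugt1a9 80.6%, and Ugt1a1 and Ugt1a7c 54.0%.

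The start of the coding sequence separates Ugt1a7c from its closest relative among the members. The first 60 coding bases of both follow, with the start codon in capitals, at chr1:88095121-88095180 for Ugt1a7c and chr1:88070830-88070889 for Ugt1a9, both on the plus strand.
Ugt1a7c: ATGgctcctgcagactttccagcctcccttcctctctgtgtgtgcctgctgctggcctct
Ugt1a9: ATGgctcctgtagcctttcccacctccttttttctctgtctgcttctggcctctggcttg

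Because of the common exons, 50.3% (Ugt1a6a) to 82.7% (Ugt1a1) of the exonic bases of the Ugt1a members were shared with another annotated gene, and none of those of the Ugt2b members were. What remained to Ugt1a1 was 385 bases of its first exon, since an antisense gene, Gm20528, covers the rest of it, and counted by strand it had 913 bases. Ugt1a9 kept 879 bases and Ugt1a6b 938 bases, each at its own first exon. Of the 1915 bases left to Ugt1a7c, 917 lay at its first exon and 998 at chr1:88219005-88220002, in the untranslated end that only its annotated transcripts carry past the common exons. Ugt1a6a had no unshared coding base, because an annotated Ugt1a7c transcript also covers its first exon. Its unshared bases were non-coding stretches of 127 and 95 bases at the upstream end and stretches of 619, 255 and 1046 bases between the common exons. Another of its transcripts covers these intronic stretches, the last of them only part of its intron.

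**Figure D1:**
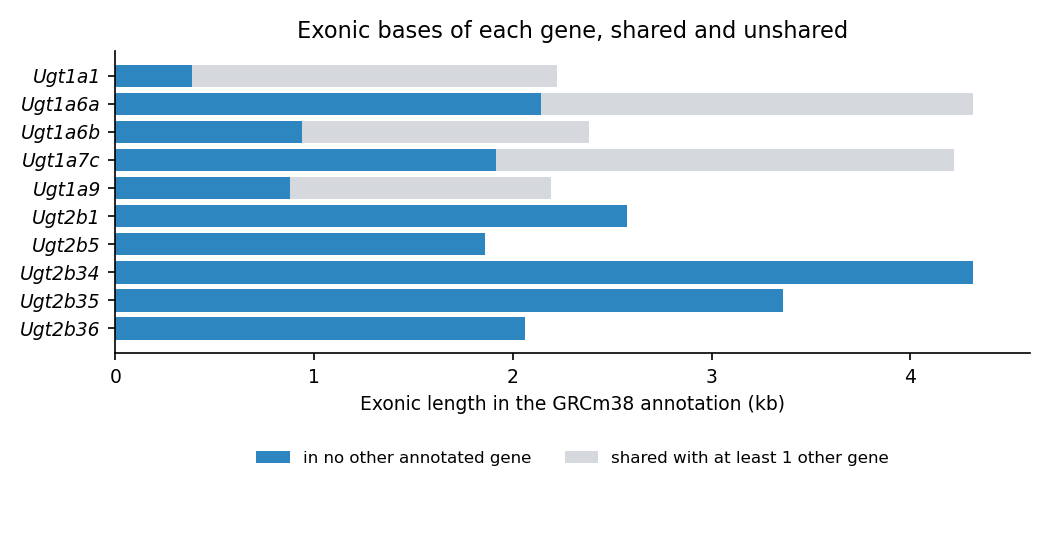
Exonic bases (kb) of each of the 10 genes in the GENCODE M21 annotation of GRCm38, split into bases found in no other annotated gene (blue) and bases shared with at least 1 other gene (grey). Ugt1a1 had 385 unshared bases of 2224, the smallest number, and the 5 Ugt2b genes shared no exonic base.

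The counts themselves show that reads on the common exons were not added to every Ugt1a gene. Ugt1a2 and Ugt1a8, which carry the same exons, had 6 and 1 counts in all livers together, whereas Ugt1a1 had 34762. The annotation, the strand setting and the rule for reads on overlapping genes are not given in the sources used here, so which bases gave the counts of a Ugt1a gene is uncertain, and each Ugt1a value below stands for reads assigned to that gene, not for all its transcripts. The bases of Ugt1a7c past the common exons would also count toward it if transcripts of its neighbours ran on into them, and the part of this in its values was not tested.

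Among the Ugt1a genes, the RNA of Ugt1a1, the enzyme that conjugates bilirubin, lay in overlapping ranges in the 2 groups. Ugt1a1 stood at 150, 122 and 95.5 CPM in sgCtrl livers 5.1, 7.1 and 7.2 and at 191, 129 and 72.2 CPM in sgPrdx2 livers 1.1, 1.3 and 3.2. Both the highest and the lowest of the 6 livers were in the sgPrdx2 group. The log2 fold change of 0.09 had a 95% interval from -0.67 to 0.86 (adjusted p = 0.877), which leaves room for a change of either sign. It was -0.28 without sgPrdx2 liver 1.1, -0.06 without sgCtrl liver 7.2 and -0.26 with total counts.

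Ugt1a6a and Ugt1a6b encode near-identical enzymes that conjugate small planar phenols. Ugt1a6a was at 8.06, 8.94 and 5.78 CPM in the sgCtrl and 13.3, 7.77 and 5.99 CPM in the sgPrdx2 livers, in the order of mice given above. Ugt1a6b was at 25.6, 28.2 and 15.0 CPM in sgCtrl and at 31.0, 21.95 and 13.3 CPM in sgPrdx2 livers. For both genes the ranges of the groups overlapped, liver 1.1 was the highest and the low end was held by a liver of each group. The log2 fold changes were 0.25 (95% interval -0.45 to 0.95, adjusted p = 0.637) for Ugt1a6a and -0.05 (-0.81 to 0.71, adjusted p = 0.935) for Ugt1a6b. Reads may be split between these copies, so their sum was also read. It came to 30.5 ± 8.60 CPM (SD, n = 3) for the sgCtrl and 31.1 ± 12.6 CPM for the sgPrdx2 livers. The sum does not bring back reads assigned to neither copy, such as any left out on the exon shared with a Ugt1a7c transcript.

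Ugt1a7c, which belongs with Ugt1a9 and the neighbouring Ugt1a8 and Ugt1a10 to the branch that conjugates bulkier phenols and drugs, was the gene whose fall was noticed. It had 7.24, 4.43 and 4.93 CPM in sgCtrl livers (317, 199 and 259 counts) and 2.05, 1.55 and 0.921 CPM in sgPrdx2 livers (90, 84 and 30 counts). Every sgPrdx2 liver lay below every sgCtrl liver. The means were 5.53 ± 1.502 and 1.51 ± 0.566 CPM (SD, n = 3), a log2 fold change of -1.86, and it ranged from -2.22 to -1.61 over 12 alternative fits. These are the values that put Ugt1a7c on the list, and no p is given for them. It had the lowest mean level per length of the 10 genes in both groups.

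Ugt1a9, the nearest relative of Ugt1a7c among the members, had 20.2, 10.3 and 16.25 CPM in sgCtrl and 9.41, 12.7 and 5.90 CPM in sgPrdx2 livers. Its groups overlapped, because sgCtrl liver 7.1 was below sgPrdx2 liver 1.3. The mean was 15.6 ± 4.97 CPM in sgCtrl and 9.32 ± 3.39 CPM in sgPrdx2 livers, and the log2 fold change of -0.74 did not pass the test (95% interval -1.475 to 0.00, adjusted p = 0.201). The sign was the same in all 12 alternatives, with log2 fold changes between -1.09 and -0.49 and adjusted p-values between 0.063 and 0.466.

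The 5 Ugt2b members lie together on chromosome 5, Ugt2b34 at chr5:86889767-86906937, Ugt2b1 at chr5:86916638-86926530, Ugt2b35 at chr5:87000860-87013275, Ugt2b36 at chr5:87065927-87092555 and Ugt2b5 at chr5:87124960-87140318. Ugt2b35 is on the plus strand and the others are on the minus strand. As a group these enzymes conjugate steroids, bile acids and many drugs. Ugt2b36, Ugt2b5 and Ugt2b1 were higher in every sgPrdx2 liver than in any sgCtrl liver, and Ugt2b34 and Ugt2b35 were not. None of the 5 differences passed the adjusted threshold.

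Ugt2b36 had the largest log2 fold change of the 9 members that were tested. It stood at 352, 416 and 288 CPM in the sgCtrl and 619, 555 and 646 CPM in the sgPrdx2 livers. The lowest sgPrdx2 liver was well above the highest sgCtrl liver. The means were 352 ± 64.1 and 606 ± 46.8 CPM (SD, n = 3), and the log2 fold change was 0.79 with a 95% interval from 0.39 to 1.185. The adjusted p was 0.0534 by edgeR, 0.0005605 by DESeq2 and 0.0286 by edgeR without a filter on low counts, and over 12 alternatives it ran from 0.0005605 to 0.175, so the call depends on the method.

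Ugt2b5 had 424, 389 and 316 CPM in sgCtrl and 505, 477 and 630.0 CPM in sgPrdx2 livers. The groups were separate, with liver 3.2 the highest. Its log2 fold change of 0.51 (95% interval 0.11 to 0.92) had an adjusted p of 0.132 by edgeR and 0.0432 by DESeq2. Ugt2b5 shares many stretches of sequence with Ugt2b37 and Ugt2b38, with 94.7% and 97.0% identical coding bases, and 41.7% of its 50-base stretches occurred in another gene. Those neighbours were near absent here, and the sum of all 3 was 377 ± 54.9 CPM in sgCtrl and 539 ± 81.2 CPM in sgPrdx2 livers, close to the values of Ugt2b5 alone.

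Ugt2b1, the one member with no 50-base stretch in common with any other gene, was at 156, 122 and 107.5 CPM in sgCtrl and at 167, 180 and 183 CPM in sgPrdx2 livers. The sgPrdx2 livers lay close together and just above sgCtrl liver 5.1. The log2 fold change was 0.46 (95% interval 0.08 to 0.84, adjusted p = 0.145). With total counts in place of TMM it was 0.08, and the groups of Ugt2b1 and Ugt2b5 overlapped on that scale, whereas those of Ugt2b36 stayed apart.

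Ugt2b34 was at 408, 368 and 337 CPM in sgCtrl and 380.4, 334 and 322 CPM in sgPrdx2 livers. Ugt2b35 was at 219, 175 and 157 CPM in sgCtrl and 173, 175 and 138 CPM in sgPrdx2 livers. Both sets of ranges overlapped. The log2 fold changes were -0.10 (95% interval -0.44 to 0.23, adjusted p = 0.690) and -0.18 (-0.58 to 0.22, adjusted p = 0.541), so a rise as large as that of Ugt2b36 lay outside both intervals. With total counts the sgPrdx2 livers were below every sgCtrl liver for both genes, on a scale where 47.5% of all genes tested were.

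**Figure D2:**
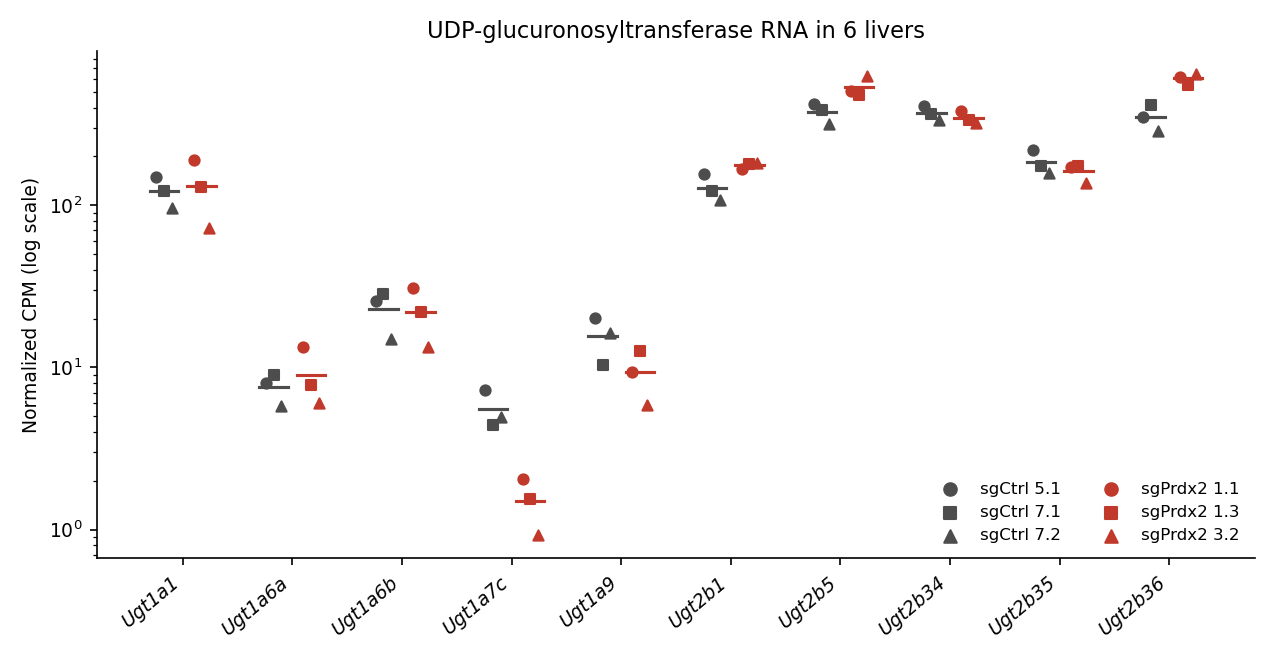
TMM-normalized CPM (log scale) of the 10 genes in each liver, sgCtrl in grey and sgPrdx2 in red, with 1 symbol per mouse and the group mean as a bar. The groups are separate for Ugt1a7c (0.921 to 2.05 against 4.43 to 7.24 CPM), Ugt2b1, Ugt2b5 and Ugt2b36 and overlap for the other 6.

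Of the 9 members tested, edgeR called none higher and none lower, beside 3.33% of all genes called. At an unadjusted p under 0.05 there were 3, all higher in sgPrdx2 livers (Ugt2b1, Ugt2b5 and Ugt2b36), where 24.9% of all genes reached it in either direction, and DESeq2 called 2, Ugt2b5 and Ugt2b36, in a fit that called 13.4% of all its genes. Ugt2b36 was also called by edgeR without a filter, with 3.94% of all genes, and at an adjusted p under 0.10, with 10.4%. In 3 of the 9 every sgPrdx2 liver was above every sgCtrl liver, beside 16.7% of all genes, and in 0 of the 9 below, beside 17.5% (34.2% in either direction). Their log2 fold changes had a median of 0.09, with 5 above 0 and 4 below, against a median of -0.02 over all genes tested. With total counts 3 were above 0, again Ugt2b1, Ugt2b5 and Ugt2b36.

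**Figure D3:**
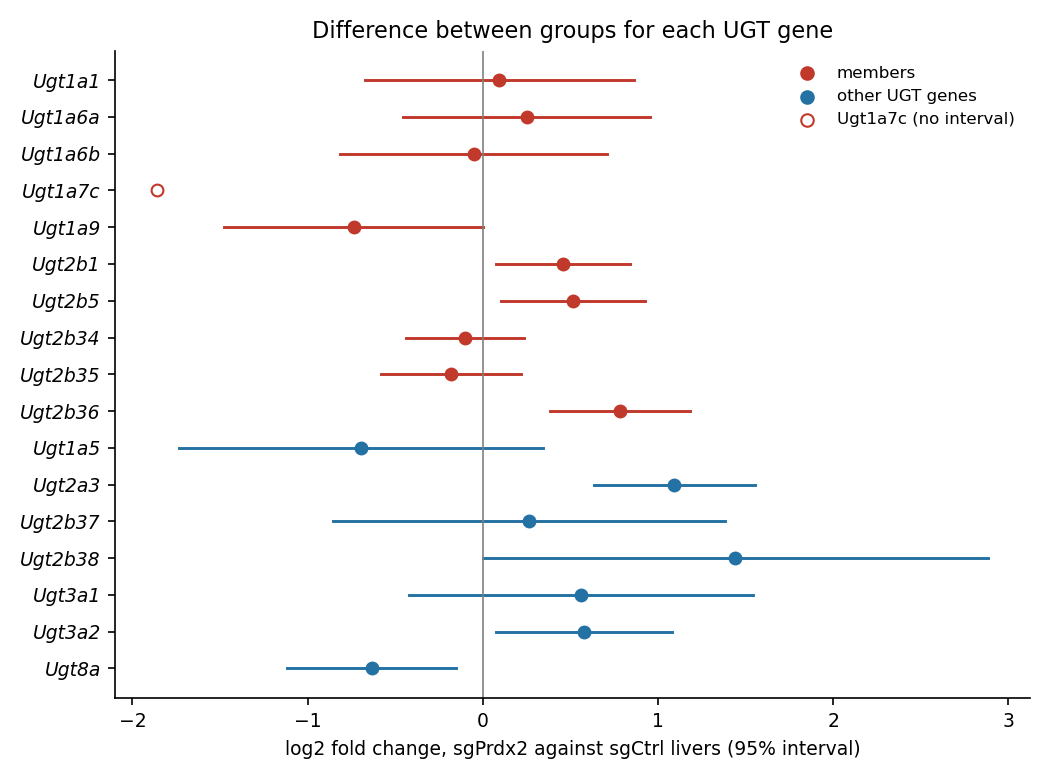
Log2 fold change between sgPrdx2 and sgCtrl livers of each UGT gene that passed the filter, with 95% intervals from the edgeR fit as lines. Members are red, other UGT genes blue, and Ugt1a7c (-1.86, open circle) has no interval because it was chosen by this value. The intervals of Ugt2b1, Ugt2b5, Ugt2b36, Ugt2a3 and Ugt3a2 lie above 0 and that of Ugt8a below.

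The composition of each family does not depend on how libraries are scaled, so it was also read as the share of each gene in the counts of its own locus. Ugt1a1 took most of the Ugt1a counts, 65.4 ± 4.36% in sgCtrl and 72.0 ± 2.12% in sgPrdx2 livers (SD, n = 3). Ugt1a7c took 3.32%, 2.435% and 3.12% in the sgCtrl and 0.799%, 0.861% and 0.897% in the sgPrdx2 livers. These shares come from the same counts that put Ugt1a7c on the list, so they only describe its fall and add no separate support for it. The Ugt1a totals of the sgPrdx2 livers ran from 103 to 257 CPM. Ugt1a6b took 12.3 ± 3.04% and 12.4 ± 0.457%, and Ugt1a9 8.42 ± 2.42% and 5.48 ± 1.69%, with overlapping ranges. In sgCtrl liver 7.2, Ugt1a5, which is not a member, held 12.8% of the Ugt1a counts, against 3.09% to 4.34% in the other 5 livers.

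Within the Ugt2b genes the shares of some members differed between the groups. Ugt2b36 took 22.6%, 28.3% and 23.9% of the Ugt2b counts in sgCtrl and 33.5%, 32.2% and 33.6% in sgPrdx2 livers. Ugt2b34 took 26.2%, 25.0% and 27.9% and then 20.6%, 19.4% and 16.8%. Ugt2b35 went from 14.0%, 11.9% and 13.03% to 9.37%, 10.2% and 7.19%. For all 3 genes the groups were separate, Ugt2b36 with the larger and Ugt2b34 and Ugt2b35 with the smaller share in sgPrdx2 livers. These shares add up to a fixed total, so that they are not independent. In CPM the groups of Ugt2b34 and Ugt2b35 overlapped, and 34.2% of all genes had separate groups in either direction. No such background was computed for shares. The share of Ugt2b5 was also higher in every sgPrdx2 liver, by a narrow margin (26.2% to 27.2% against 27.4% to 32.8%), and that of Ugt2b1 overlapped (9.07 ± 0.869% and 9.66 ± 0.71%). The summed Ugt2b level was 1412 ± 184 CPM in sgCtrl and 1829 ± 99.9 CPM in sgPrdx2 livers, and the summed Ugt1a level 186 ± 30.4 and 179.9 ± 76.9 CPM.

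**Figure D4:**
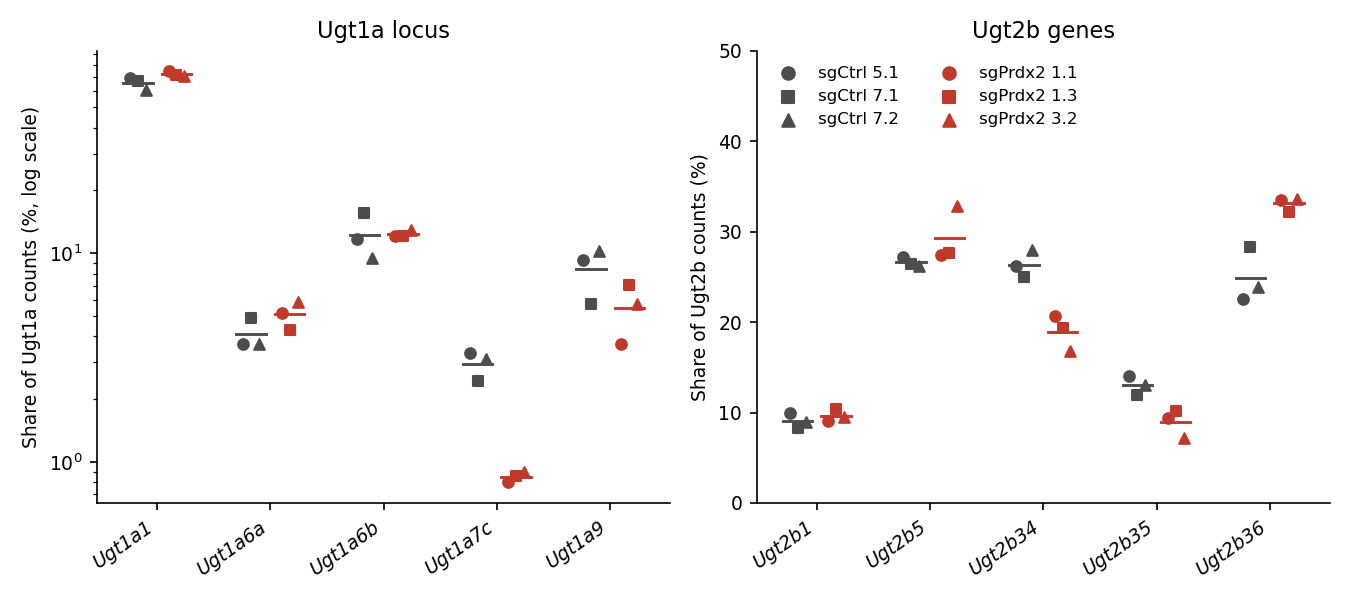
Share (%) of each member in the counts of all Ugt1a genes (left, log scale) and of all Ugt2b genes (right, linear scale) in each liver, sgCtrl in grey and sgPrdx2 in red, group means as bars. Ugt1a7c, which was chosen for its fall, lies between 2.435% and 3.32% in the sgCtrl and under 0.9% in the sgPrdx2 livers. The share of Ugt2b36 lies between 22.6% and 28.3% in the sgCtrl and between 32.2% and 33.6% in the sgPrdx2 livers. That of Ugt2b34 lies between 25.0% and 27.9% and between 16.8% and 20.6%.

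The livers of the sgPrdx2 group differed from each other in the 2 families. Liver 3.2, which stood apart on the first principal component, was the lowest of all 6 for 4 of the 5 Ugt1a members and the lowest of its group for all 5, but the highest of all 6 for 3 of the 5 Ugt2b members. Liver 1.1 was the highest of all 6 for 3 of the 5 Ugt1a members. Among the sgCtrl livers, 7.2 was the lowest of its group for all 5 Ugt2b members. Leaving liver 3.2 out of the fit moved the log2 fold change of Ugt1a1 from 0.09 to 0.40, that of Ugt1a6a from 0.25 to 0.48, that of Ugt1a6b from -0.05 to 0.22 and that of Ugt1a9 from -0.74 to -0.49.

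Levels of different genes can be compared only per length, here as CPM per kb of exonic bases that no other gene shares. In sgCtrl livers the order was Ugt1a1 (318 CPM per kb), Ugt2b5 (202), Ugt2b36 (171), Ugt2b34 (86.0), Ugt2b35 (54.7), Ugt2b1 (49.9), Ugt1a6b (24.5), Ugt1a9 (17.75), Ugt1a6a (3.55) and Ugt1a7c (2.89). In sgPrdx2 livers Ugt1a1 (339 CPM per kb) was followed by Ugt2b36 (294.5), Ugt2b5 (289), Ugt2b34 (80.1), Ugt2b1 (68.6), Ugt2b35 (48.2), Ugt1a6b (23.5), Ugt1a9 (10.6), Ugt1a6a (4.21) and Ugt1a7c (0.788). Neighbours with overlapping ranges were Ugt2b5 and Ugt2b36, Ugt2b35 and Ugt2b1, Ugt1a6b and Ugt1a9, and Ugt1a6a and Ugt1a7c in sgCtrl livers. In sgPrdx2 livers they were Ugt1a1 and Ugt2b36, Ugt2b36 and Ugt2b5, and Ugt1a6b and Ugt1a9. The first place of Ugt1a1 rests on its short unshared length: with bases under the antisense gene counted as its own it came to 134 and 143 CPM per kb and ranked 3 in both groups. The place of Ugt1a6a is also uncertain, since much of its unshared length is intronic sequence that a single transcript covers.

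The other members of the superfamily include 7 genes that passed the filter. Ugt2a3, a neighbour of the Ugt2b genes whose human counterpart conjugates bile acids, rose. It had 73.3, 90.7 and 53.7 CPM in sgCtrl and 163, 143 and 158 CPM in sgPrdx2 livers. All sgPrdx2 livers were higher than any sgCtrl liver, beside 16.7% of all genes. The log2 fold change was 1.09 (95% interval 0.64 to 1.55, adjusted p = 0.0409), and in 8 of 12 alternatives the adjusted p stayed under 0.05. It was 0.122 without sgCtrl liver 5.1, 0.143 without 7.2, 0.147 without sgPrdx2 liver 1.1 and 0.0785 without 1.3.

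Ugt3a2, of the branch that uses sugar donors other than UDP-glucuronic acid, was at 222 ± 52.3 CPM in sgCtrl and 331 ± 62.5 CPM in sgPrdx2 livers (log2 fold change 0.58, adjusted p = 0.157), without overlap. Ugt8a, which makes galactosylceramide, was at 3.2 ± 0.19 and 2.06 ± 0.389 CPM (log2 fold change -0.63, adjusted p = 0.122), also without overlap and lower. Of all genes tested, 16.7% were higher and 17.5% lower without overlap. The log2 fold changes of Ugt3a1, Ugt1a5, Ugt2b37 and Ugt2b38 were 0.56, -0.69, 0.26 and 1.44 with overlapping groups (adjusted p from 0.201 to 0.760). Ugt1a2, Ugt1a8, Ugt1a10, Ugt2a1 and Ugt2a2 were below the filter. Ugt2a1 and Ugt2a2 were listed with 0 counts in every liver. They share 98.8% and 94.5% of their exonic bases with other genes, each other among them, so these zeros set no limit on their RNA.

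Promoters were searched for the core letters of motifs bound by regulators of UGT genes, GCGTG of the aryl hydrocarbon receptor and TGACNNNGC of NRF2, on both strands from 250 bases before to 50 bases after the start. RefSeq sequences of GRCm38.p6 were at hand for 9 of the 10 members, all but Ugt1a6b. Neither motif occurred in any of the 9 windows, while GCGTG was found in 32.4% and TGACNNNGC in 12.4% of 32851 promoters. The search says only that these letters are not in these windows.

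UGTs depend on the supply of UDP-glucuronic acid, which is made from glucose phosphate through UDP-glucose. None of the 6 genes of this supply was called, and their median log2 fold change was -0.07. Ugdh, which forms UDP-glucuronic acid, was at 254 ± 9.79 CPM in sgCtrl and 246 ± 11.8 CPM in sgPrdx2 livers (log2 fold change -0.05, adjusted p = 0.842). Slc35d1, which carries it into the endoplasmic reticulum, differed by -0.09 on the log2 scale (adjusted p = 0.689). The smallest p belonged to Pgm1, a phosphoglucomutase, at 17.6 ± 1.79 and 11.8 ± 0.246 CPM (log2 fold change -0.58, adjusted p = 0.0534). The more abundant Pgm2, also a phosphoglucomutase, was at 146 ± 12.2 and 188 ± 30.8 CPM (log2 fold change 0.36, adjusted p = 0.209). Ugp2, which makes UDP-glucose, was at 427 ± 59.9 and 558 ± 31.6 CPM (log2 fold change 0.38, adjusted p = 0.176). Both Pgm2 and Ugp2 were higher without overlap, beside 16.7% of all genes. Gusb, the lysosomal glucuronidase that removes glucuronic acid again, was at 99.8 ± 6.21 and 71.25 ± 5.70 CPM with no overlap (log2 fold change -0.49, adjusted p = 0.0740). Of all genes tested, 17.5% were lower without overlap.

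Of the 4 genes that lead from haem to bilirubin, the substrate of Ugt1a1, Hmox1 fell and the others did not pass the test. Of all genes tested, 1.54% were called lower. Hmox1, the inducible haem oxygenase, had 125, 107 and 157 CPM in sgCtrl and 62.7, 70.9 and 58.9 CPM in sgPrdx2 livers (log2 fold change -1.01, adjusted p = 0.0386). Hmox2, Blvra and Blvrb had log2 fold changes of 0.05, -0.00 and 0.25. The 8 transporters of glucuronides and organic anions had a median log2 fold change of 0.38. Abcc4, an exporter in the blood-facing membrane of hepatocytes, was at 71.85, 19.8 and 43.4 CPM in sgCtrl and 12.0, 12.8 and 11.1 CPM in sgPrdx2 livers (log2 fold change -1.91), and because this fall had been noticed earlier in these data it is given without a test. None of the other 7 was called, and the smallest p among them was that of the uptake carrier Slco1a4, at 32.3 ± 10.9 and 59.55 ± 3.30 CPM (log2 fold change 0.88, adjusted p = 0.0678). Abcc2 and Abcc3, which export bilirubin glucuronides into bile and blood, had log2 fold changes of 0.24 each (adjusted p = 0.432 and 0.458). Slco1a1, also an uptake carrier, had 15.7 CPM in sgPrdx2 liver 3.2 and 0.297 to 2.29 CPM in the other 5 livers (log2 fold change 2.26, adjusted p = 0.235).

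None of 11 regulators of UGT genes was called (median log2 fold change 0.21). The smallest p was that of Nr1h4, the bile acid receptor, at 87.55 ± 7.46 CPM in sgCtrl and 131 ± 15.8 CPM in sgPrdx2 livers (log2 fold change 0.59, adjusted p = 0.0668). Of 5 targets of the aryl hydrocarbon receptor none was called, with a median of -0.24 and the smallest p at Cyp1b1 (log2 fold change -1.09, adjusted p = 0.0530). Of 3 targets of CAR and PXR, receptors that induce UGT and cytochrome P450 genes, none was called, with a median of 0.83 and the smallest p at Cyp3a11 (log2 fold change 0.83, adjusted p = 0.0832). Cyp3a11 alone was higher without overlap, beside 16.7% of all genes. Cyp2c55 was at 20.7 CPM in sgPrdx2 liver 3.2 and at 4.48 to 5.89 CPM in every other liver. Cyp2b10 ran from 0.0685 to 8.85 CPM in sgCtrl and from 1.025 to 13.8 CPM in sgPrdx2 livers. Of 6 targets of NRF2, the regulator of antioxidant genes, Srxn1 fell, from 290 ± 55.6 to 154 ± 20.6 CPM (log2 fold change -0.91, adjusted p = 0.0466), and the median was -0.45. Srxn1 was the only 1 of the 6 called, beside 1.54% of all genes called lower, and 2 of the 6 log2 fold changes were above 0. Hmox1 and Srxn1 were each called in 8 of 12 alternatives, with adjusted p from 1.70e-05 to 0.162.

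UGT RNA in liver comes mainly from hepatocytes, and hepatocyte markers were themselves higher in sgPrdx2 livers. All 6 hepatocyte markers were called higher, beside 1.79% of all genes, with a median log2 fold change of 1.20. Their summed level was 73170 to 78880 CPM in sgCtrl and 125400 to 172600 CPM in sgPrdx2 livers. Apoc3, an apolipoprotein, had the largest log2 fold change of them (1.41, adjusted p = 0.0409), Ttr, the carrier of thyroid hormone, had 1.355 (adjusted p = 0.0394), and Alb, Apoa1, Serpina1a and Fgb, all secreted plasma proteins, had 0.97, 1.15, 1.25 and 0.83 (adjusted p from 0.0409 to 0.0491). Each of the 6 was called in 4 to 7 of 12 alternatives. Of 6 markers of pericentral hepatocytes, the zone in which glucuronidation is strongest, Cyp2e1 rose (log2 fold change 0.96, adjusted p = 0.0409) and the median was 0.59. The other 5 pericentral markers were not called, and of all 6 the log2 fold changes of 5 were above 0 and that of 1 was below. None of 6 periportal markers was called, but all 6 were higher without overlap, beside 16.7% of all genes (median 1.31, smallest p at Pck1, log2 fold change 1.24, adjusted p = 0.0769). The 9 UGT members tested, with a median of 0.09, and the 5 Ugt2b members, with 0.46, lay below the medians of all 3 hepatocyte lists. In whole liver RNA, fewer cells of a type and less RNA per cell cannot be told apart.

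Markers of other cells were lower or little different. The medians were -0.37 for 5 cholangiocyte, -0.46 for 5 macrophage, -0.50 for 5 stellate cell, -0.53 for 4 endothelial and -0.23 for 5 lymphocyte markers, and none of these markers was at 0 in every liver. Pecam1 of the endothelial list fell (log2 fold change -0.77, adjusted p = 0.0423), as did Cd8a of the lymphocyte list (-0.84, adjusted p = 0.0486). Of all genes tested, 1.54% were called lower. No cholangiocyte, macrophage or stellate cell marker was called, and the smallest p were those of Spp1 (-0.46, adjusted p = 0.117), Adgre1 (-0.81, adjusted p = 0.0690) and Acta2 (-1.49, adjusted p = 0.0584). The summed macrophage markers stood at 2602 to 2800 CPM in sgCtrl and 1785 to 2616 CPM in sgPrdx2 livers, the summed cholangiocyte markers at 1624 to 1852 and 1216 to 1389 CPM and the summed stellate markers at 431.5 to 514 and 326 to 390.5 CPM. Most of the cholangiocyte sum was Spp1 (means 1578 and 1150 CPM), and most of the stellate sum was Col1a1 (314 and 221 CPM). Of the macrophage, cholangiocyte and stellate lists, 2 of 5 markers each were lower without overlap, beside 17.5% of all genes. The macrophage sums overlapped, since sgPrdx2 liver 3.2 (2616 CPM) lay above sgCtrl liver 7.1 (2602 CPM). The endothelial sums (126 to 150 and 81.1 to 146 CPM) and lymphocyte sums (17.3 to 22.7 and 15.9 to 19.03 CPM) overlapped too. Of 4 tumour markers tested, Golm1 fell (-0.70, adjusted p = 0.0431) and the median was -0.12, with summed levels of all 5 from 53.4 to 138 and from 54.4 to 127 CPM. The part of cell composition in the UGT values was not tested.

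**Figure D5:**
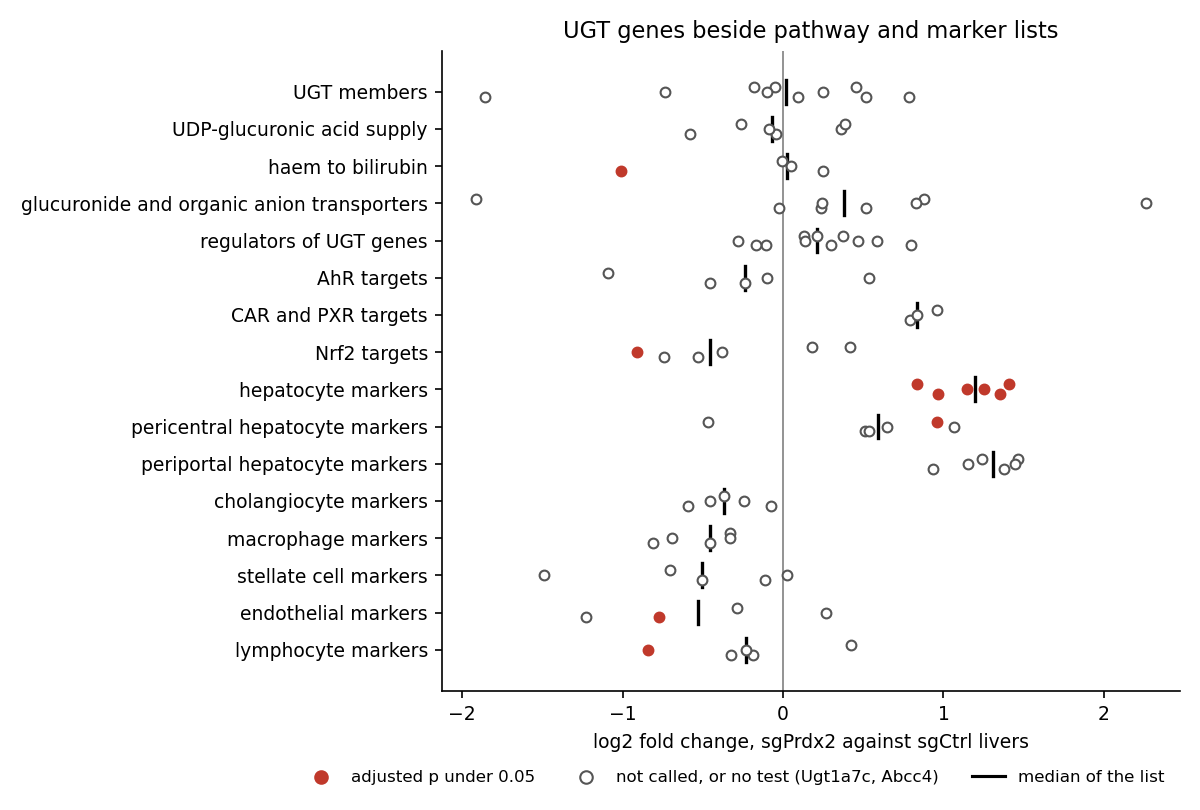
Log2 fold change between sgPrdx2 and sgCtrl livers of each gene (points) in the UGT list and in 15 pathway and marker lists, filled red where the adjusted p was under 0.05 (Ugt1a7c and Abcc4, unfilled, were not tested), with the list median as a black bar. Hepatocyte markers (median 1.20) and periportal markers (1.31) lie to the right of 0, the 10 UGT genes spread on both sides of it (median 0.02 with Ugt1a7c), and the other cell types lie mostly to the left.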

How the data were processed

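RNA of 6 livers was sequenced, 3 per group, and groups were taken from the sample labels, which name 1 mouse per liver. The authors deposited whole-number counts of reads per gene for each liver, without normalization. They also deposited the output of a DESeq2 comparison between the groups (mean level, log2 fold changes with standard errors, test statistic, raw and adjusted p), which was not used. The submitters' processing notes name HISAT2, HTSeq, DESeq2 and GRCm38. Versions, annotation and strand setting are not given in the sources used here.

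Counts were normalized by TMM, filtered with filterByExpr (minimum count 10) and tested with the quasi-likelihood test of edgeR 4.0.16 in R 4.3.3, two-sided, with all 6 livers and no covariate. p-values were adjusted by Benjamini-Hochberg over 17032 genes and called under 0.05. CPM are TMM-normalized. The biological coefficient of variation was 0.213, and no pair of livers agreed within sampling noise. Depths of 37462102 to 56865293 counts put 3 counts at 0.0555 to 0.0921 CPM, counting error only. On data simulated for this comparison, with 200 of 17032 genes changed 4-fold, edgeR recovered 184 with 14 others and DESeq2 1.42.0 recovered 181 with 26 others. The tested UGT members had fold changes from 0.60 to 1.72, so this recovery does not say how often differences of their size would be called.

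Exons, shared bases and 50-base stretches come from GENCODE M21 (GRCm38), in which 48108 of 52459 symbols and all 22 UGT symbols were found, and need not match the annotation the authors counted with. Members and lists were chosen with earlier results of these data known. Named genes are all members, the other UGT genes that passed the filter, Prdx2, and in each list the called genes and the one with the smallest p. Abcc4 is named without a test. The list genes Ugdh, Pgm2, Ugp2, Slc35d1, Abcc2, Abcc3, Slco1a1, Hmox2, Blvra, Blvrb, Gulo, Akr1a1, Cyp2b10, Cyp2c55, Col1a1, Papss1 and Papss2 were singled out with their values known.

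Alternatives were RLE or upper-quartile factors, total counts, DESeq2, no filter, at least 10 counts in every liver, an adjusted p under 0.10, and leaving out each liver. For levels per kb they were the length of all exons and, added after seeing the data, the exonic bases not shared on the same strand.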

Additional observations from a re-analysis of the deposited data

How the results depend on the processing

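No paired analysis was possible because the groups share no mouse number. The main fit called 305 genes higher and 262 lower in sgPrdx2 livers. DESeq2 called 1162 and 886, edgeR without a filter 644 and 484, an adjusted p under 0.10 gave 964 and 803, and total counts gave 206 and 3041 (6.34% of calls higher, against 53.8% with TMM). With 1 liver left out, 0 to 324 genes were called higher and 0 to 295 lower, with none called without sgCtrl liver 5.1 or 7.2 or sgPrdx2 liver 1.1 or 1.3, so that the calls named in the report were lost in those 4 fits. The 9 UGT members tested had 0 called higher in the main fit, 2 by DESeq2, and 1 each without a filter and at an adjusted p under 0.10, and 0 called lower in every fit.

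Signs turned only where the change was small. Ugt1a1 (0.09) was -0.26 with total counts and between -0.28 and 0.40 with 1 liver left out (-0.056 without sgCtrl liver 7.2), Ugt1a6a (0.25) was -0.11 and between -0.14 and 0.48, Ugt1a6b (-0.05) was between -0.38 and 0.22 with 1 liver left out (0.033 and 0.13 without sgCtrl livers 5.1 and 7.1), and Ugt2b37 (0.26) was -0.067 with total counts and between -0.24 and 0.82. Ugt8a was called lower with total counts (-1.005, adjusted p = 0.0275). Ugt1a7c, Ugt1a9 and the 5 Ugt2b members kept their sign in all 12 alternatives. Per kb of all exons, Ugt1a1 came to 55.05 CPM in sgCtrl and 58.75 in sgPrdx2 livers. The spread of Ugt1a1 between livers left a 95% interval from -0.67 to 0.86, so a difference of either sign within it remains possible for this gene.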

Other observations

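Sulfation is the other main route by which the liver conjugates steroids and phenols. Of 9 sulfotransferase and sulfate donor genes, 2 rose and none fell, and their median log2 fold change was 0.59, beside 1.79% of all genes called higher. Sult1b1, which sulfates thyroid hormones and small phenols, had 19.8, 22.4 and 17.9 CPM in sgCtrl and 40.01, 37.5 and 43.9 CPM in sgPrdx2 livers (log2 fold change 1.01, adjusted p = 0.0313). Sult2a8, which sulfates bile acids in mouse liver, had 56.6, 95.6 and 58.4 CPM in sgCtrl and 236, 216 and 227 CPM in sgPrdx2 livers (log2 fold change 1.69, adjusted p = 0.0313). Both had all sgPrdx2 livers above all sgCtrl livers, beside 16.7% of all genes. They were called in 8 of 12 alternatives, with adjusted p up to 0.143. Papss2, which makes the sulfate donor, was at 92.4 ± 6.90 and 139 ± 20.1 CPM (SD, n = 3; log2 fold change 0.59, adjusted p = 0.0709), and Papss1, which does the same, at 21.5 ± 3.94 and 17.65 ± 4.39 CPM (log2 fold change -0.28, adjusted p = 0.445).

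In mice glucuronic acid is also the starting point of vitamin C synthesis. None of the 3 genes of this branch was called, with a median log2 fold change of 0.62. Rgn was at 285, 564 and 394 CPM in sgCtrl and 967, 780.3 and 902 CPM in sgPrdx2 livers (log2 fold change 1.09, adjusted p = 0.0568), with no overlap. Gulo, the enzyme of the last step, was at 557 ± 94.1 and 857 ± 155 CPM (SD, n = 3; log2 fold change 0.62, adjusted p = 0.112), also without overlap. Of all genes tested, 16.7% were higher without overlap. For Akr1a1, the remaining gene of the branch, the groups overlapped (log2 fold change 0.20, adjusted p = 0.457). With total counts the medians of the sulfotransferase and vitamin C lists were 0.23 and 0.23.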
